A study of Mus musculus with 22 samples.

Results

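The mesendoderm lineage factors examined here were 10 genes, T, Eomes, Mixl1, Gsc, Mesp1, Foxa2, Sox17, Gata4, Gata6 and Cer1, taken as the rows of the deposited gene counts whose gene symbol equalled a listed name. Each symbol matched 1 row, so that the genes made up 10 of 34489 genes in the table. Of these, 9 passed the filter on low counts and entered the tests, and Mesp1 did not, with 2 counts over all 22 libraries. The study asked whether activators of AMPK, an energy-sensing kinase, return primed epiblast stem cells of the mouse (mEpiSCs) to the naive state of its embryonic stem cells (mESCs), and bulk RNA-seq was used to place the cells between both states.

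In the gastrulating embryo, primed epiblast cells that pass through the primitive streak become mesoderm or definitive endoderm. NODAL/Activin and WNT signals drive this step, and it is marked by the T-box factors T (Brachyury) and Eomes, by the homeobox factors Mixl1 and Gsc, and by the mesoderm factor Mesp1. Foxa2, Sox17, Gata4 and Gata6 are transcription factors of endoderm, and Gata4, Gata6 and Sox17 also act in the primitive endoderm of the blastocyst. Cer1 is a secreted antagonist of NODAL and BMP made by anterior visceral and definitive endoderm. EpiSCs are held in FGF2 and Activin A, and can carry low levels of such factors while undifferentiated.

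The libraries fell into 10 groups. For naive cells there was 1 library, from Rex1-GFP mESCs of strain 129/Ola, which carry a GFP reporter of Rex1 (Zfp42). Primed cells gave 1 library of Oct4GIP mEpiSCs (129/Ola), which carry an Oct4 promoter-driven GFP and puromycin-resistance transgene, and by 1 library of 129/MSM mEpiSCs, derived from epiblast of embryos of 129X1/SvJ females and MSM/Ms males. Per the methods of the study, Oct4GIP was kept feeder-free on fibronectin in serum-free N2B27-type medium. The 129/MSM line was kept on mouse embryonic fibroblast (MEF) feeders in a medium with serum replacement. Both media held FGF2 and Activin A. The study lists Oct4GIP and Rex1-GFP as XX and 129/MSM as XY. Cell line, sex, medium and feeders thus cannot be told apart between the primed libraries, nor cell line and sex between the reverted ones. For reversion, cells of either line were plated on MEF feeders and kept in Basal medium with the activator for 16 days. They were then expanded on gelatin in 2iL, which is LIF with inhibitors of MEK and GSK3. Expanded Oct4GIP cells gave 4 libraries after 2 or 3 passages (AICAR and AICAR+LIF at d16+2p and d16+3p). After 10 passages Oct4GIP gave 5 libraries (metformin+LIF, and AICAR or A769662 each with and without LIF) and 129/MSM gave 2 (AICAR and AICAR+LIF). Whole Oct4GIP cultures before expansion gave 2 libraries each of d8 and d16 without AICAR (Basal medium and 2iL) and of d8 and d16 with AICAR (alone or with LIF). No library repeated another one's exact condition, so p-values measure the spread between libraries of a group and not between separate cultures of 1 condition.

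Total counts ranged from 438771 (AICAR+LIF d8) to 5290163 (Basal d16). AICAR d8 (956357) and AICAR d16+10p of Oct4GIP (1689495) came next above the lowest. Levels are given as CPM, counts per 1000000 after TMM scaling, and 3 counts (0.565 to 5.93 CPM, depending on the library) were taken as the floor. Intervals and floors cover counting error only. The labelled states were checked on their markers. The summed level of 5 naive genes (Zfp42, Esrrb, Klf4, Tfcp2l1 and Nr5a2) was 2959 CPM in the naive library, 1915 to 3637 CPM in the 11 expanded libraries, 17.3 and 23.1 CPM in primed Oct4GIP and 129/MSM, and 12.4 to 72.0 CPM in the 8 whole cultures. In the bulk libraries used here, fewer cells of a type and less RNA per cell cannot be told apart.

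The promoters of 4 of the genes are shown as an entry to their regulation. Of the 10 genes, 6 (T, Eomes, Gsc, Mesp1, Foxa2 and Cer1) had a window of 300 bases in RefSeq GRCm38.p6, 250 before and 50 after the start site, and Foxa2 had 3 such windows. Sox17, Mixl1, Gata4 and Gata6 had none. Below are T (chr17:8434173-8434472, + strand), whose level differed between the lines after reversion and between the media, Foxa2 (chr2:148045415-148045714, - strand, the window among its 3 that held a match), and Eomes (chr9:118477939-118478238, + strand) and Cer1 (chr4:82885102-82885401, - strand), which were high in primed 129/MSM. They read 5′ to 3′ on the gene's strand. Capitals mark matches on either strand to 4 sets of letters. The letters CTTTGAT stand for TCF/LEF, the effectors of WNT. The letters AGGTGT stand for the core of the T-box site. The letters AATNCACA stand for FOXH1, a partner of NODAL signalling. The letters AGATAA stand for zinc-finger factors such as Gata4.
T: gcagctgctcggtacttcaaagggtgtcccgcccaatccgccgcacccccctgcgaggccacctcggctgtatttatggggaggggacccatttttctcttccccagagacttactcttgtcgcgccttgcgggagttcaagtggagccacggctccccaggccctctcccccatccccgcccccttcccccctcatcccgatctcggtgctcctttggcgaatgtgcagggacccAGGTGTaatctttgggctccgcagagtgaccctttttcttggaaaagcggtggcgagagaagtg
Foxa2: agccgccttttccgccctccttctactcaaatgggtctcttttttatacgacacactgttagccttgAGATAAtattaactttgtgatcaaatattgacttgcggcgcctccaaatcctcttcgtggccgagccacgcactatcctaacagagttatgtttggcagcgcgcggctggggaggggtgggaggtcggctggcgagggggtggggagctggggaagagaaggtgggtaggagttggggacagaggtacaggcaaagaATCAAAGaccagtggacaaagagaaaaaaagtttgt
Eomes: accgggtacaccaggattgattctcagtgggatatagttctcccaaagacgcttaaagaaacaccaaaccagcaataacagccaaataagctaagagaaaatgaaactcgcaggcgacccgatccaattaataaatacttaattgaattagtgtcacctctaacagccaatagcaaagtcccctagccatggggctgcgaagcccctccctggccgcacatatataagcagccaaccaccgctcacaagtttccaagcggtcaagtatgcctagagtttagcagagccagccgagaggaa
Cer1: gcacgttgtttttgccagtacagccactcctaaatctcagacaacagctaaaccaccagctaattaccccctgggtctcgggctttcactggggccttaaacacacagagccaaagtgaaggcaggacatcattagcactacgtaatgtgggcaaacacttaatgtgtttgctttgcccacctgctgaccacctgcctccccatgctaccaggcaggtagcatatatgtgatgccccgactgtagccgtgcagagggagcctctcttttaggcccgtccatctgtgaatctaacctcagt
The T window held 1 T-box match, 14 bases before the start site. The Foxa2 window held 1 match of the Gata4 type and, 14 bases after the start site on the opposite strand, 1 TCF/LEF match. The window of Mesp1, which had 2 counts in all, held 1 TCF/LEF and 2 T-box matches and is not printed. The windows of Eomes, Cer1 and Gsc held none of the 4 sets of letters. Over all 32851 promoter windows of that length, 13.7% held the T-box letters, 11.2% those of the Gata4 type, 3.73% the TCF/LEF letters and 3.6% the FOXH1 letters. These matches describe letters and not sites of binding.

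The primed lines differed most. In primed 129/MSM, 8 of 9 tested genes were higher than in primed Oct4GIP (edgeR's quasi-likelihood test, adjusted p under 0.05), where 5.45% of all 18739 genes tested were called higher. With 1 library on each side, the test rests on the spread of the replicated groups. Outside primed 129/MSM, Cer1, Sox17 and Mixl1 reached at most 2.63, 3.01 and 2.74 CPM. They passed the filter on low counts only through primed 129/MSM, so their place among the 9 rests on the library tested here. Summed over the 10 genes, primed 129/MSM reached 1342 CPM against 21.3 CPM for primed Oct4GIP, and the sum lay between 5.79 and 81.1 CPM in the 21 libraries other than primed 129/MSM.

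Cer1 (chr4:82881751-82885148) showed the largest level. It had 2367 counts in primed 129/MSM (748 CPM, 95% counting interval 718 to 778) and 1 count in primed Oct4GIP (0.368 CPM, interval 0.00931 to 2.05). The ratio was 2033 with a counting interval of 364 to 80322, and the log2 difference was 10.82 ± 1.04 (SE, edgeR adjusted p = 5.14e-05). It ranked 14 among all genes tested for the size of its rise. No library outside primed 129/MSM had more than 7 counts of Cer1.

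Of the endoderm transcription factors, Sox17 (chr1:4490931-4497354), the SOX factor of definitive and primitive endoderm, had 443 counts in primed 129/MSM (140 CPM) and 0 in primed Oct4GIP (edgeR adjusted p = 0.000428). Its level was 127-fold above a floor of 3 counts (1.10 CPM), and the counting interval of the ratio began at 103. Sox17 ranked 7 among all genes tested. Gata4 (chr14:63198922-63271692), a zinc-finger factor of endoderm and heart, had 260 counts against 1 (82.1 and 0.368 CPM, log2 difference 7.63 ± 0.99, edgeR adjusted p = 0.000226). Its relative Gata6 had 276 counts against 1 (87.2 and 0.368 CPM, log2 difference 7.72 with an SE of 1.502, edgeR adjusted p = 0.00413). Ratios of counts were 223 (interval 39.7 to 8853) for Gata4 and 237 (interval 42.2 to 9395) for Gata6, so that the single count in primed Oct4GIP set how far the upper bounds reached. Foxa2 (chr2:148042877-148046969), the forkhead factor of anterior streak, node and endoderm, had 223 counts against 9 (70.4 and 3.31 CPM, log2 difference 4.39 ± 0.77, edgeR adjusted p = 0.00221).

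Of the streak factors, Eomes, Gsc and T were called higher and Mixl1 was not. Eomes (chr9:118478212-118486132), which specifies definitive endoderm and early mesoderm, had 471 counts in primed 129/MSM and 32 in primed Oct4GIP (149 and 11.8 CPM, log2 difference 3.65 ± 0.75, edgeR adjusted p = 0.00598). Gsc (chr12:104471209-104473330), the homeobox factor of the organizer, had 105 counts against 2 (33.2 and 0.736 CPM, log2 difference 5.41 ± 1.35, edgeR adjusted p = 0.0186). T (chr17:8434423-8442496), the mesoderm T-box factor, had 78 counts against 11 (24.6 and 4.05 CPM, log2 difference 2.59 ± 0.77, edgeR adjusted p = 0.0424), the smallest difference of the 9 genes tested. Mixl1 (chr1:180693043-180697034) had 27 counts against 1 (8.53 and 0.368 CPM) and was not called (log2 difference 4.37 ± 1.76, edgeR adjusted p = 0.126). Mesp1 (chr7:79792241-79793788), which marks nascent cardiac mesoderm, had 0 counts in both primed libraries. Its counting intervals reached up to 1.17 CPM in 129/MSM and 1.36 CPM in Oct4GIP.

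Per kilobase of exon, the order within primed 129/MSM was Cer1 (430 CPM per kb), Eomes (35.8), Foxa2 (29.7), Sox17 (29.3), Gsc (26.2), Gata4 (21.03), Gata6 (13.4), T (10.6), Mixl1 (3.72) and Mesp1 (0). The counting intervals of neighbours overlapped at each step from Eomes to Gata4 and again between Gata6 and T, so that those steps of the order were not separated. In primed Oct4GIP, Eomes led with 2.83 CPM per kb, before T (1.75) and Foxa2 (1.40), and the other genes lay at or under the floor of 3 counts. The plot of levels by library shows primed 129/MSM as the column that stands apart.

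**Figure D1:**
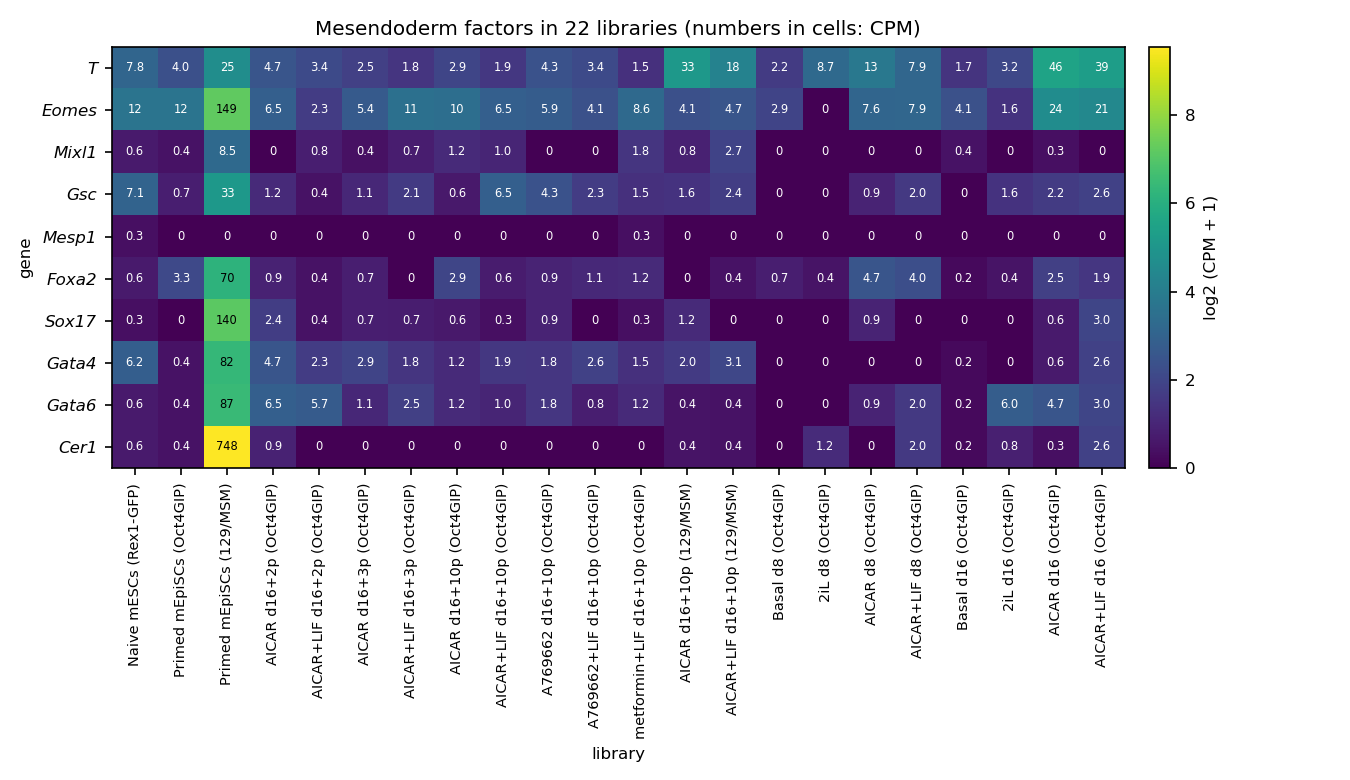
Levels of the 10 mesendoderm factors (rows) in each of the 22 libraries (columns), coloured by log2 (CPM + 1) with the CPM written in each cell. Primed 129/MSM holds the highest value of 8 of the 10 genes, the exceptions being T, highest in AICAR d16 (45.9 CPM), and Mesp1, which had 2 counts in all.

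Other genes of the same biology were read from lists of related genes. Of 13 tested genes of anterior streak and definitive endoderm, 7 were higher in primed 129/MSM and 0 lower, with a median log2 difference of 2.95, against a median of 0 over all genes. Among the largest were Lhx1, a LIM homeobox factor of anterior mesendoderm (344 CPM against 0 counts), Dkk1, a WNT antagonist (95.1 CPM against 0 counts), and Foxa1, a relative of Foxa2 (51.2 CPM against 0 counts). Cxcr4, the chemokine receptor used to sort definitive endoderm, was also higher (120 CPM against 1.10). Of 9 tested genes of primitive and visceral endoderm, 4 were higher (Col4a1, Col4a2, Lama1 and Hnf4a) and 0 lower. The basement-membrane collagens Col4a1 and Col4a2 led in level, at 364 and 171 CPM against 27.6 and 11.0, and both are also made by fibroblasts. Of the visceral endoderm genes, primed 129/MSM had 0 counts of Ttr, Afp and Amn, 3 of Apoa1 and 4 of Cubn, at or near the floor, and 17 counts of Hnf4a, above it. Of 17 tested genes of streak and early mesoderm, 0 were called in either direction by edgeR (median log2 difference 0.35), and Fgf8, Snai1, Lefty2 and Pdgfra had an unadjusted p under 0.05. Of 6 tested cardiac and lateral mesoderm genes, Isl1 was called (34 counts against 0).

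Markers of other cells moved with these differences. Summed over 11 feeder fibroblast markers, 129/MSM had 833 CPM and Oct4GIP 65.8 CPM when primed, 4 of 11 were called higher (Col1a2, Dcn, Postn and Prrx1), and all 11 had more than 3 counts in 129/MSM. The whole cultures, which also contained feeders, had summed levels of these markers of 3198 to 50761 CPM. Whether the markers came from feeders or from cells that differentiated in culture was not tested. The highest levels in the cultures were 2.63 CPM of Cer1, 3.01 of Sox17, 2.63 of Gata4, 6.01 of Gata6, 4.74 of Foxa2 and 2.63 of Gsc, each below primed 129/MSM by more than 10 times. Eomes reached 24.0 CPM in the cultures, below the 149 CPM of primed 129/MSM, and T reached 45.9 CPM, above its 24.6 CPM. The primed epiblast genes Fgf5, Otx2, Dnmt3b, Pou3f1 and Cldn6 summed to 1908 CPM in 129/MSM and 404 CPM in Oct4GIP, and the 5 pluripotency genes summed to 1038 and 1762 CPM. The part of these markers in the differences was not tested.

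**Figure D2:**
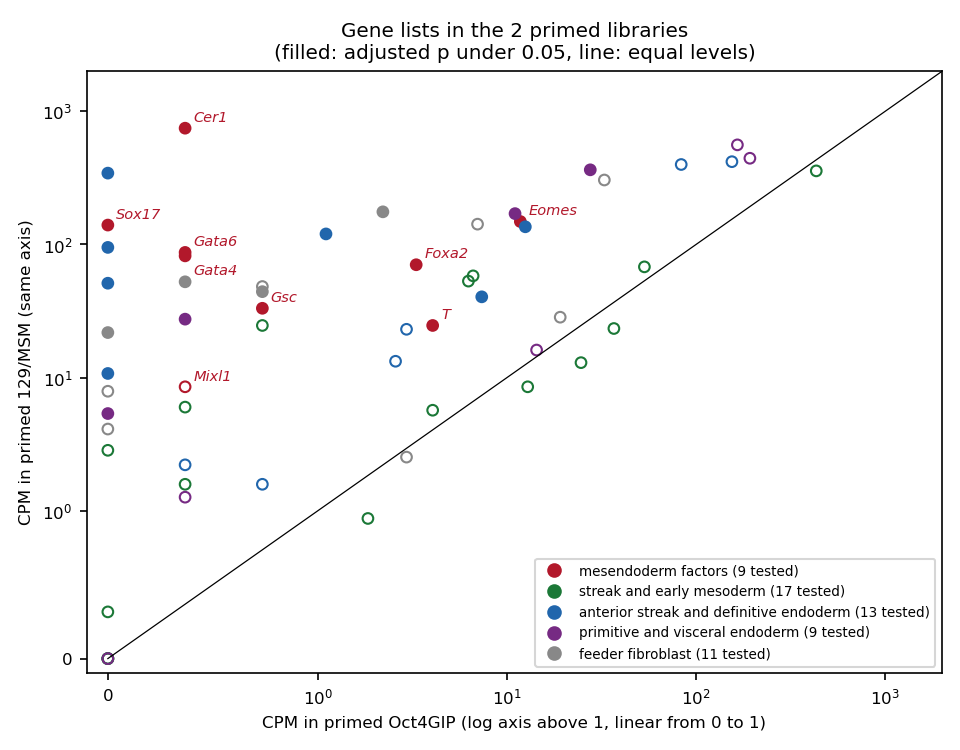
Levels of listed genes in primed Oct4GIP (x axis, CPM) and primed 129/MSM (y axis, CPM), with 1 point per tested gene and the line of equal levels. Filled points passed the test (8 of 9 mesendoderm factors, 7 of 13 anterior streak and definitive endoderm genes, 4 of 9 primitive and visceral endoderm genes, 4 of 11 feeder markers and 0 of 17 streak and early mesoderm genes), and all filled points lie above the line.

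Reversion was then compared within each line. In 129/MSM, 7 of 9 tested genes were lower in the 2 d16+10p libraries than in the primed library, where 14.1% of all genes tested were called lower. The primed side was the same 1 library as above, through which Cer1, Sox17 and Mixl1 had passed the filter. Cer1 had 1 count in each d16+10p library against 2367 (log2 change -10.71 ± 0.76, edgeR adjusted p = 2.2e-07, ratio of counts 1869 with an interval of 517 to 15441). Foxa2 had 0 and 1 counts against 223 (log2 change -8.17 ± 0.84, edgeR adjusted p = 1.02e-06). Sox17 had 3 and 0 counts against 443 (log2 change -7.76 ± 0.87, edgeR adjusted p = 7.03e-06). The levels of these endoderm genes in reverted 129/MSM cells were thus at or under the floor. The sizes of the changes of Foxa2 and Sox17 depended on which library held the few counts. Foxa2 was at -7.33 without the AICAR library and at -10.6 without the AICAR+LIF library. Sox17 was at -11.59 without the AICAR library and at -6.78 without the AICAR+LIF library. Both genes were called lower in each case.

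Gata6 had 1 count in each reverted 129/MSM library against 276 (log2 change -7.61 ± 1.12, edgeR adjusted p = 6.87e-05). Gata4 kept 5 and 8 counts against 260 (2.04 and 3.14 CPM against 82.1, log2 change -4.96 ± 0.58, edgeR adjusted p = 1.16e-05). Eomes kept 10 and 12 counts against 471 (4.08 and 4.70 CPM against 149, log2 change -5.07 ± 0.64, edgeR adjusted p = 1.27e-05). Gsc kept 4 and 6 counts against 105 (1.63 and 2.35 CPM against 33.2, log2 change -4.02 ± 0.91, edgeR adjusted p = 0.00319). Both reverted libraries lay below the primed library for each of these 7 genes, which restates the calls and is not a separate result.

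The exceptions were T and Mixl1. T had 82 and 46 counts in the reverted 129/MSM libraries (33.5 and 18.0 CPM), on either side of the 24.6 CPM of the primed library (log2 change 0.06 ± 0.56, edgeR adjusted p = 0.974). Mixl1 had 2 and 7 counts against 27 (0.816 and 2.74 CPM against 8.53) and was not called (log2 change -2.22 ± 1.12, edgeR adjusted p = 0.159). Feeder markers fell alongside, from 833 CPM to 13.9 and 16.9 CPM, with 10 of 11 called lower, and 9 of 13 anterior streak and definitive endoderm genes were lower, with the largest changes in Lhx1 (344 CPM to 0 counts), the WNT antagonist Frzb (23.1 CPM to 0 counts) and Krt19 (136 to a mean of 0.400 CPM).

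In Oct4GIP, 0 of 9 tested genes were called between the 5 d16+10p libraries and the primed library, where 38% of all genes were called by edgeR and 8670 genes had an unadjusted p under 0.05. The primed library had 0 counts of Sox17, 1 each of Mixl1, Gata4, Gata6 and Cer1, and 2 of Gsc. No fall could be called from so few counts, so 0 of 9 does not show that levels stayed the same. None of the 9 had an unadjusted p under 0.05 (the lowest was 0.0563, of Gata4), and limma voom and DESeq2 also called 0. Eomes, the highest of them, had 32 counts in the primed library (11.8 CPM, interval 8.05 to 16.6) and between 4.15 and 10.0 CPM (median 6.49) in the reverted libraries (log2 change -0.76 ± 0.60, edgeR adjusted p = 0.336). T was at 4.05 CPM in the primed library and between 1.49 and 4.31 CPM (median 2.94) in the reverted ones (log2 change -0.53 ± 0.70, edgeR adjusted p = 0.586). Foxa2 was at 3.31 CPM and then between 0.649 and 2.94 CPM (log2 change -1.38 ± 0.70, edgeR adjusted p = 0.123), and without the AICAR d16+10p library, which was the highest of the 5, it was called lower (log2 change -1.72, edgeR adjusted p = 0.0473). Gata4 had 1 count in the primed library and 2 to 7 counts in the reverted libraries, and Gsc had 2 counts and then 1 to 20 counts. Cer1 had 1 count in the primed library and 0 in all 5 reverted libraries.

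The difference between the lines in reverted minus primed was itself called for 6 of 9 genes, all lower in 129/MSM, where 3.45% of all genes were called lower. The comparison of the primed lines, the change within 129/MSM and this difference share 1 primed 129/MSM library. Their counts of genes called are therefore not separate results. Cer1, Sox17 and Mixl1 passed the filter on low counts only through that library, so their place among the 9 rests on it. The difference was -4.30 ± 0.92 for Eomes (edgeR adjusted p = 0.011), -6.79 ± 1.23 for Foxa2 (edgeR adjusted p = 0.003), -7.15 ± 1.15 for Gata4 (edgeR adjusted p = 0.00184) and -9.21 ± 1.98 for Gata6 (edgeR adjusted p = 0.0105), on the log2 scale. Sox17 was called too (edgeR adjusted p = 0.0104), with primed Oct4GIP at 0 counts. Gsc was called (-6.06 ± 1.57, edgeR adjusted p = 0.0299) but not without the AICAR d16+10p library of 129/MSM (edgeR adjusted p = 0.0761) or without its AICAR+LIF library (edgeR adjusted p = 0.0687). Without the AICAR or the AICAR+LIF library of reverted 129/MSM, the difference was -5.96 and -9.22 for Foxa2, and both were called. Cer1 was not called by edgeR (unadjusted p = 0.956), with all 5 reverted Oct4GIP libraries at 0 counts, whereas limma voom (log2 difference -8.69, adjusted p = 0.00352) and DESeq2 (-8.38, adjusted p = 0.00626) called it. T (0.59 ± 0.90, edgeR adjusted p = 0.796) and Mixl1 (-3.22 ± 2.12, edgeR adjusted p = 0.41) were not called.

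**Figure D3:**
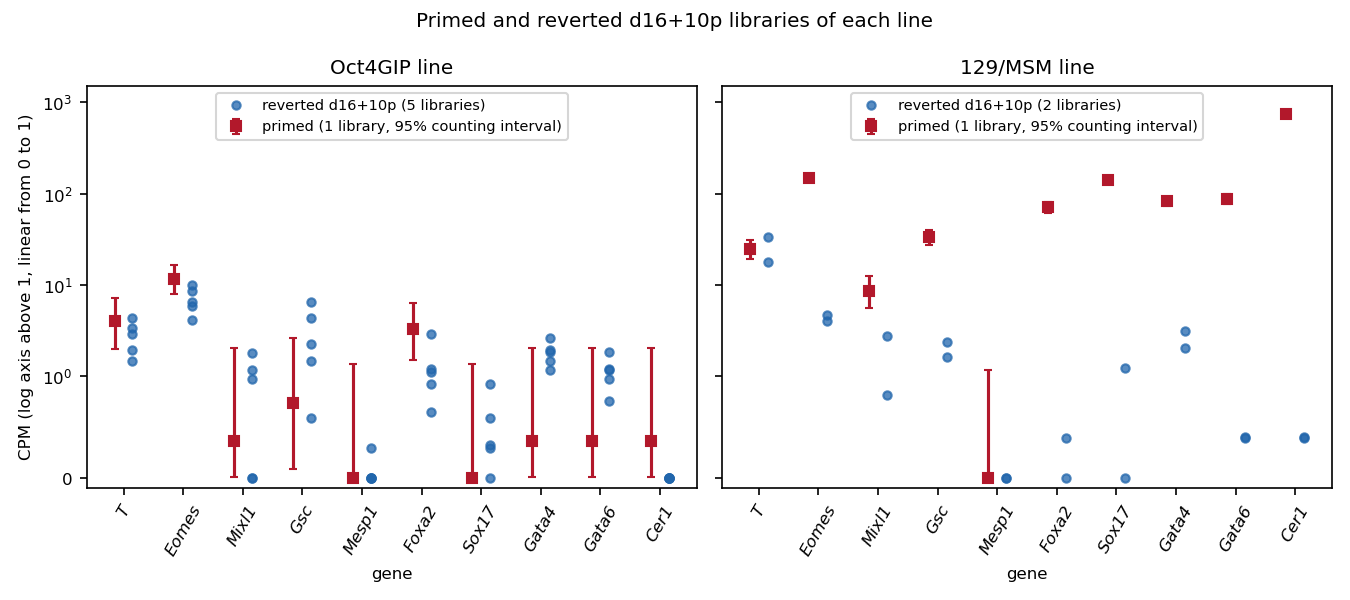
Levels (CPM) of each gene in the primed library (red square with its 95% counting interval) and in the d16+10p libraries (blue points, 1 per library) of Oct4GIP (left) and 129/MSM (right). In 129/MSM the 7 genes called lower fall from 33.2 to 748 CPM in the primed library to at most 4.70 CPM, while T overlaps. In Oct4GIP the highest level of any gene is the 11.8 CPM of Eomes.

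Between the reverted cells of both lines, in a comparison added after the values were seen, T was the only gene of the 9 that was called, where 6.36% of all genes were called. It was at 33.5 and 18.0 CPM in 129/MSM and at 2.94 (AICAR), 1.95 (AICAR+LIF), 4.31 (A769662), 3.39 (A769662+LIF) and 1.49 CPM (metformin+LIF) in Oct4GIP, with no overlap. The log2 difference was 3.18 ± 0.42 (edgeR adjusted p = 0.000158), and it ranged from 2.67 to 3.56 over 13 alternatives (highest adjusted p 0.0115). Restricted to the matched treatments, T was 33.5 against 2.94 CPM with AICAR and 18.0 against 1.95 CPM with AICAR+LIF. Cell line and sex cannot be told apart in this comparison.

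Of 17 streak and early mesoderm genes, Lefty2, a NODAL antagonist, was the 1 called between the reverted lines (468 and 89.8 CPM, log2 difference 2.39 ± 0.43, edgeR adjusted p = 0.0025).

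**Figure D4:**
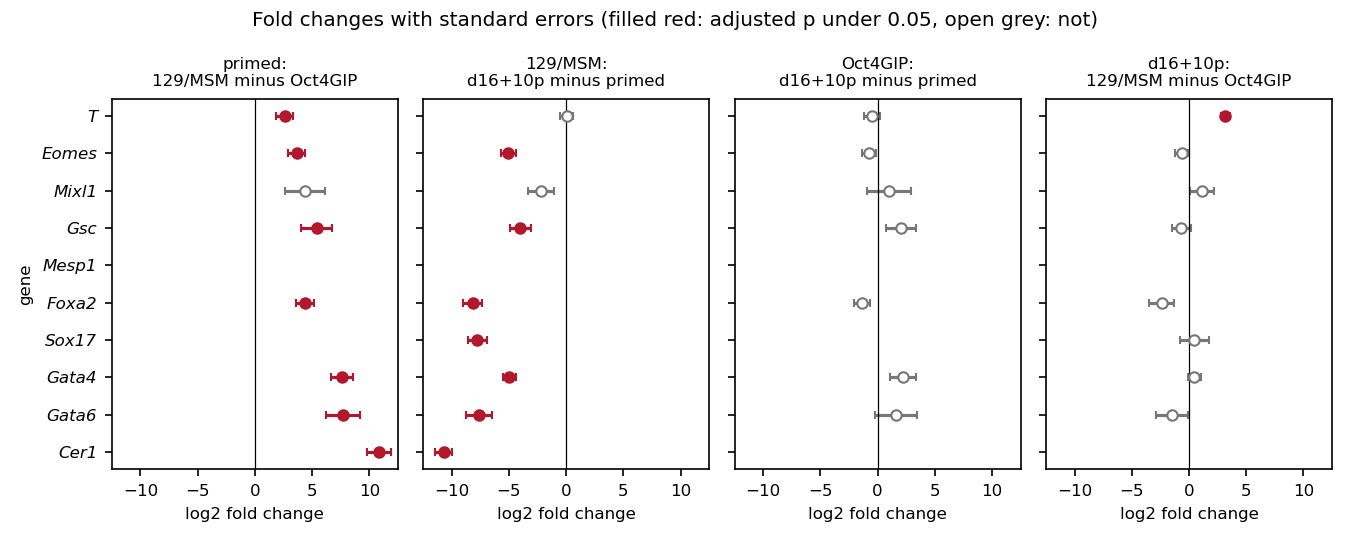
Log2 fold changes (x axis) of each gene (rows) with standard errors from the edgeR fit in 4 comparisons, 1 per panel. Filled red points passed an adjusted p of 0.05. Mesp1 was not tested, and Sox17 and Cer1 have no point where a group was at 0 counts. T is at 2.59 between the primed lines, at 0.06 within 129/MSM and at 3.18 between the reverted lines.

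Within Oct4GIP, 0 of 9 genes were called between d16+10p and d16+2–3p, where 16.2% of all genes were called by edgeR and 5375 had an unadjusted p under 0.05. Mean levels at d16+2–3p were 0.222 CPM of Cer1, 0.457 of Mixl1, 0.498 of Foxa2, 1.04 of Sox17 and 1.19 of Gsc. At such levels, near or under the floor, a fall could hardly be called. The count was 0 by limma voom and DESeq2 as well. Gata6 was the nearest (unadjusted p = 0.0193), at 6.51 (AICAR d16+2p), 5.70 (AICAR+LIF d16+2p), 1.09 (AICAR d16+3p) and 2.46 CPM (AICAR+LIF d16+3p) and between 0.754 and 1.85 CPM at d16+10p (log2 change -1.69 ± 0.67, edgeR adjusted p = 0.091), and it was called with no filter on low counts (edgeR adjusted p = 0.00337) and with LIF and 2iL as terms in the fit (edgeR adjusted p = 0.0241). Both d16+2p libraries lay above all the later ones. Eomes lay between 2.28 and 10.5 CPM at d16+2–3p and between 4.15 and 10.0 CPM at d16+10p, and the groups overlapped (log2 change 0.15 ± 0.41, edgeR adjusted p = 0.868). The naive library, which entered no test, had 11.8 CPM of Eomes, 7.76 of T, 7.14 of Gsc and 6.21 of Gata4, and at most 0.621 CPM of each other gene. Its Gata4 level (interval 3.79 to 9.59) was above the highest d16+10p level of 3.14 CPM (interval 1.35 to 6.18), but the intervals overlapped. The T level of the naive library lay between those of the reverted Oct4GIP and 129/MSM libraries. Feeder markers summed to 8.78 to 95.8 CPM at d16+2–3p and to 8.11 to 23.4 CPM at d16+10p.

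Whole Oct4GIP cultures before expansion addressed what the factors did while the cells left the primed state. Against primed Oct4GIP, 0 of 9 genes were called over the 8 cultures, where 39.7% of all genes were called by edgeR and 8917 had an unadjusted p under 0.05. For Sox17, Mixl1, Gata4, Gata6, Cer1 and Gsc, with 0 to 2 counts in the primed library, no fall could be called. Pou5f1, the pluripotency factor Oct4, fell from 818 to a mean of 9.85 CPM, and feeder markers rose from 65.8 to at least 3198 CPM, with 9 of 11 feeder markers called higher. By limma voom and DESeq2 the count of mesendoderm factors called was also 0, and Foxa2 had an unadjusted p of 0.0351 in the edgeR test (log2 change -1.51 ± 0.70).

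AICAR was then compared with its absence within the cultures. The side without AICAR held Basal medium and 2iL, which contains LIF and inhibitors of MEK and GSK3. Only AICAR against Basal medium differed by AICAR alone. In the pooled comparison, AICAR and the absence of 2iL cannot be fully told apart. T, Eomes and Foxa2 were higher in the 4 libraries with AICAR than in the 4 without, where 8.97% of all genes were called higher. T was at 13.3 (AICAR) and 7.91 CPM (AICAR+LIF) at d8 and at 45.9 and 38.8 CPM at d16. Without AICAR it was at 2.17 (Basal medium) and 8.71 CPM (2iL) at d8 and at 1.70 and 3.21 CPM at d16. The d16 libraries with AICAR were above all the others, and the d8 libraries overlapped, since 2iL d8 exceeded AICAR+LIF d8.

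The log2 difference of T was 2.62 ± 0.43 (edgeR adjusted p = 0.000458) over both days, and 3.29 without 2iL d8. At d16 alone, where 10.1% of all genes were called, it was 4.19 ± 0.57 (edgeR adjusted p = 0.00039). At d8 alone, where 14.4% were called, it was 1.06 ± 0.64 (edgeR adjusted p = 0.302), and the difference between the days was not called (3.13 ± 0.85, edgeR adjusted p = 0.0504, 3.14% of all genes called). These contrasts by day were added after the values were seen. The AICAR+LIF d8 library had 4 counts of T.

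Eomes was at 7.58 and 7.91 CPM with AICAR and at 2.90 (Basal medium) and 0 CPM (2iL) without it at d8. At d16 it was at 24.0 and 21.1 CPM with AICAR and at 4.15 and 1.60 CPM without. Over both days the log2 difference was 2.56 ± 0.55 (edgeR adjusted p = 0.00304). AICAR d8 and AICAR+LIF d8 had only 8 and 4 counts. Their counting intervals (3.27 to 14.9 and 2.16 to 20.3 CPM) overlapped that of Basal d16 (2.60 to 6.28 CPM). The difference was 5.11 without Basal d8, which left 2iL d8 at 0 counts as the only library of its group, and 2.14 without 2iL d8, and it was called in both cases. At d16 alone the difference was 2.83 ± 0.59 (edgeR adjusted p = 0.00533), and at d8 alone it was not called (2.30 ± 0.92, edgeR adjusted p = 0.101).

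Foxa2 was low in all 8 cultures, with 5 and 2 counts at d8 and 8 and 5 counts at d16 with AICAR, and 2, 1, 1 and 1 counts without (log2 difference 2.86 ± 0.65, edgeR adjusted p = 0.00334). Its highest level, 4.74 CPM in AICAR d8, was near the 3.31 CPM of primed Oct4GIP. Sox17 and Gata4 were called at d16 alone (edgeR adjusted p = 0.0454 and 0.0486) on at most 8 and 7 counts in a library. Mixl1 had at most 2 counts in any culture, and Mesp1 had 0 in all 8.

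**Figure D5:**
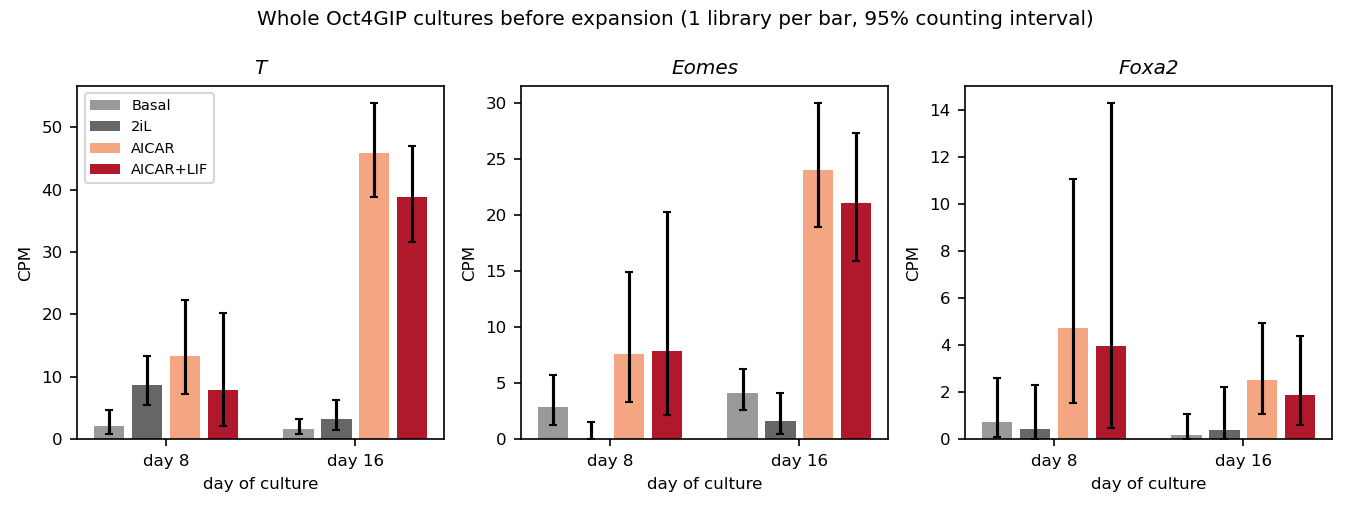
Levels (CPM) of T, Eomes and Foxa2 in the 8 whole Oct4GIP cultures by day and medium, with 1 library per bar and its 95% counting interval. At day 16 T stood at 45.9 and 38.8 CPM with AICAR and at 1.70 and 3.21 CPM without, and the day 8 intervals with AICAR are wide because those libraries had the lowest totals.

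Of 17 streak and early mesoderm genes, 5 were higher with AICAR, 1 was lower and 11 were not called, with a median log2 difference of 0.26 against -0.06 over all genes. The summed level of the list was 413 and 415 CPM with AICAR against 569 and 567 CPM without at d8, and 538 and 513 CPM against 425 and 648 CPM at d16. Those with the largest change were Nodal, the streak-inducing TGF-beta ligand (mean 20.3 CPM with AICAR and 0.0905 without), Fgf8 (6.13 and 0.100 CPM), Lefty2 (13.9 and 0.502 CPM) and Tdgf1, the NODAL co-receptor (28.9 and 5.57 CPM), and Dll1 was lower (35.7 and 194 CPM). Of 13 anterior streak and definitive endoderm genes, 7 were higher, among them Lefty1 (155 and 2.01 CPM) and Shh (11.3 and 1.69 CPM), and Lhx1 was lower (19.5 and 107 CPM). Pluripotency genes moved alongside, with 3 of 5 higher, Pou5f1 at means of 18.8 and 0.958 CPM, Nanog at 32.8 and 2.84 CPM and Tdgf1 as above, and Sox2 lower (129 and 218 CPM). Of 11 feeder markers, Postn and Prrx1 were higher with AICAR, and the summed feeder level was 3198 to 19508 CPM with and 3512 to 50761 CPM without AICAR. The part of these markers in the rise of T and Eomes was not tested.

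Between d16 and d8, 1 of 9 genes was called, where 35.4% of all genes were called. Gata6 had 0 counts in Basal medium and in 2iL and 1 count in either AICAR culture on d8, and 1, 15, 15 and 8 counts on d16 (edgeR adjusted p = 0.0283). More than 3 counts were found only in 2iL, AICAR and AICAR+LIF at d16. The call was lost in limma voom (adjusted p = 0.135) and without each of 5 libraries in turn, with edgeR adjusted p of 0.0801 without Basal d8, 0.0749 without 2iL d8, 0.104 without AICAR d8, 0.26 without 2iL d16 and 0.0629 without AICAR d16. The feeder fibroblast markers rose over the same days, 8 of 11 being called higher. Whether feeders or differentiated cells gave this rise was not tested.

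The genes whose pattern over the 22 libraries was most like that of each factor were taken by Pearson's r of log2 CPM among 10853 genes of mean log2 CPM of at least 3, as a description that shares libraries and depth. For each factor the nearest 3 are named, with r over the 22 libraries of the first. They were Pigk, Gm9008 and Mylip for T (0.81), Minpp1, Hbp1 and Emb for Eomes (0.77), Prkaa1, Cd55 and Shc1 for Gsc (0.79), and Nsmaf, Acsl4 and Smchd1 for Foxa2 (0.81). They were Fzd5, Tubb4b-ps2 and Syde2 for Gata4 (0.86), Hdlbp, Emb and Car2 for Gata6 (0.79), Emb, Minpp1 and Cd55 for Sox17 (0.70), and Gatad1, Rabgap1l and Amot for Cer1 (0.77). Over the 21 libraries without primed 129/MSM, r was 0.81 for T with Pigk, 0.67 for Eomes with Minpp1, 0.84 for Gata4 with Fzd5, 0.33 for Sox17 with Emb and 0.35 for Cer1 with Gatad1. Mixl1 and Mesp1 never reached 10 CPM and were given no such genes. Fzd5, a WNT receptor, had a level of 658 CPM in primed 129/MSM against 39.0 CPM in Oct4GIP.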

How the data were processed

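The 22 libraries were TruSeq Stranded mRNA single-read libraries. The authors demultiplexed with bcl2fastq, mapped with Bowtie2 2.2.5 to mouse GRCm38 transcripts, and deposited raw counts per gene and per transcript. Groups came from the sample labels, and the column headed as primed mEpiSCs was the Oct4GIP library by its title. Counts were analysed in R 4.3.3 with edgeR 4.0.16: filterByExpr by group, TMM factors, and 1 quasi-likelihood fit of all 22 libraries in 10 groups (12 residual degrees of freedom), with Benjamini-Hochberg adjustment over 18739 genes at 0.05. A group of 1 library was assumed to vary like the others. Alternatives used limma 3.58.1 and DESeq2 1.42.0, other size factors, no filter, LIF and 2iL as terms, and leaving out libraries. The scripts were tested on simulated data. Promoter windows and motif letters were read from RefSeq GRCm38.p6, and gene positions from the GRCm38 annotation. Named genes were the 10 factors, with list genes chosen by the size of their change among those called. For each factor that reached 10 CPM in a library, the 3 genes of most similar pattern were named. The factors and gene lists were chosen with earlier results of these data known. Hhex, with 2 entries in the table, was left out. Exact positions of Gata6 are not reported here.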

Additional observations from a re-analysis of the deposited data

Results flagged for a closer look

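Foxa2 in the AICAR d16+10p library of Oct4GIP stood apart from the other 4 reverted libraries of its group, at 2.94 CPM (5 counts) against 1.19 CPM for the next. Chance alone sets such a library apart in about 1 in 20 groups.

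The change from primed to reverted cells differed between the lines by the test of the difference itself for 6 genes, with 129/MSM minus Oct4GIP at -4.30 for Eomes, -6.06 for Gsc, -6.79 for Foxa2, -11.13 for Sox17, -7.15 for Gata4 and -9.21 for Gata6 on the log2 scale (edgeR adjusted p between 0.00184 and 0.0299). This difference contains the 1 primed 129/MSM library, and none of the 6 genes was called between the reverted lines. Sox17 passed the filter on low counts only through that library. Within Oct4GIP none of the 6 was called. Gsc, Sox17, Gata4 and Gata6 had 2, 0, 1 and 1 counts in primed Oct4GIP, under the floor of 3 counts. The direction of their change there was thus not determined. The value of Sox17 depends on the prior count, since primed Oct4GIP was at 0, and it was -14.96 without the AICAR library and -10.16 without the AICAR+LIF library of reverted 129/MSM.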

How the results depend on the processing

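The labels give no replicate numbers, so libraries were not paired by replicate, and libraries of matching treatment were not used as blocks. Treatments shared by the groups compared, LIF and 2iL, were fitted as terms instead, a choice made after the data were seen. The kind of activator was not fitted. The 2iL term covered only the cultures titled 2iL, so between passages and between the reverted lines only LIF was adjusted for. With these terms 1 factor (Gata6) was called between passages, and the factors called between days (1) and between the reverted lines (1) were as before. The count of factors called lower in reverted 129/MSM was 7 in every alternative run. T, not called there, turned to -0.029 with no normalization factors and to -0.00795 with limma voom, and lay between -0.45 and 0.44 without either reverted library of 129/MSM (-0.45 without AICAR). Eomes between d16+10p and d16+2–3p lay between -0.12 (without AICAR+LIF d16+2p) and 0.50. With no filter the factors called were 1 between passages, 1 between cultures and primed, 5 with AICAR and 2 between days, and 1900 of all genes were called between the reverted lines (1192 with the filter). With AICAR, limma voom called 7 factors, d16 alone 5 (10.1% of all genes called) and d8 alone 1 (14.4%). The fit of 8 cultures called 1351 of all genes and d16 alone 1884 (3838 in the full fit). Between days DESeq2 called 2 factors and the fit of 8 cultures 0. For the factor counts of limma voom, DESeq2 and no filter, the shares of all genes called are not given. Those counts show only that the result depended on the setting. Without both AICAR d8 libraries, 1 factor (Foxa2, log2 change -2.21, edgeR adjusted p = 0.02) was called between cultures and primed. Leaving out each library in turn gave 0 to 1 factors for reverted against primed Oct4GIP, 0 to 1 for cultures against primed, 3 to 5 with AICAR (2448 to 4529 of all genes), 0 to 1 between days, 504 to 991 of all genes for the difference between the lines (1015 in the full fit) and 316 to 1212 between the reverted lines. The cause of these shifts was not tested. Counts of 1 to 10 limit most factors outside primed 129/MSM, and the primed and naive states had 1 library each.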
